A study of Mus musculus with 6 samples.

Results

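Transcripts of the primary cilium's transport machinery were compared between oligodendrocyte precursor cells (OPCs) with and without a conditional deletion of Ep400, a chromatin remodeler. The genes were taken by symbol from the deposited table: intraflagellar transport (IFT), Bardet-Biedl syndrome (BBS), tectonic (Tctn) and other transition zone genes such as Nphp4, the small GTPases Arl3, Arl6 and Arl13b, Ttc21a and Ttc21b, and the single names Wdr19, Wdr34, Wdr35, Wdr60, Cep290, Rpgrip1l, Tulp3, Ofd1, Traf3ip1, Cluap1 and Mks1. This gave 44 of the 48526 genes in the table, and all 44 had an adjusted p-value, as 20101 genes did. IFT and BBS genes that carry other symbols, such as Ttc8 and Mkks, are given separately.

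Cells were sorted by YFP and Hoechst from mouse forebrain at postnatal day 6, on a mixed 129SvJ/C57Bl/6J background. The Ep400 cko group had 3 samples of genotype CNP1::Cre, conditional Rosa26stopflox-YFP and conditional Ep400, and the ctrl group had 3 samples of genotype CNP1::Cre and conditional Rosa26stopflox-YFP, so both groups carried the Cre, driven by a promoter of the oligodendroglial lineage, and the reporter. The labels call the samples biological replicates and do not say how many animals went into each. RNA was sequenced from libraries of a stranded mRNA kit, and the question is which cilium transcripts differ when the lineage loses Ep400. All fold changes below are log2 values of Ep400 cko over ctrl from the authors' deposited table, moderated towards 0 by the authors, with the standard error (SE). Values for single samples were not analysed here, so each gene has 1 mean over both groups.

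A primary cilium is a single non-motile projection of the cell surface that gathers receptors and relays hedgehog signals. Cargo enters it on IFT trains: the IFT-B complex is tied to outward movement on kinesin-2, and the IFT-A complex to the return on dynein-2. The BBSome, a coat of BBS proteins, moves membrane receptors along these trains, and the transition zone at the base acts as the gate between cilium and cell body. Many of these genes, and those of motile cilia, have an X-box in their promoters, the DNA motif bound by RFX transcription factors, and Foxj1 is the factor that drives the motile programme of ependymal cells.

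The cells hold transcripts of several types, and the marker lists below moved between the groups. From the authors' deposited table, mean normalised reads per kilobase of exon ran from 74.7 to 24731 over the OPC markers, with 1964 for Pdgfra and 9630 for Olig2. They ran from 596 to 37270 over the astrocyte markers and from 2150 to 53639 over the microglia markers, so the ranges of these lists overlapped. The median of the means was 47841 normalised reads for microglia, 36517 for astrocyte and 19289 for tested OPC markers. It was 11224 for mural and fibroblast, 10816 for tested myelin, 2240 for neuron and 777 for tested multiciliated cell markers. Transcripts typical of other cell types were thus as abundant as those of OPCs, or more so. Over all tested genes, 7.64% were higher and 4.61% lower in Ep400 cko. Among the lists, 15 of 20 astrocyte markers and 3 of 12 neuron markers were higher in Ep400 cko. Lower in Ep400 cko were 12 of 15 mural and fibroblast markers, 11 of 29 tested markers of motile cilia and multiciliated cells, 3 of 10 microglia markers and 3 of 13 tested myelin markers, of which 1 was higher. Of 14 tested OPC markers 2 were higher, Ptprz1 and Cspg5, which astrocytes also express, and 2 lower, C1ql1 and Matn4, while 11 of the 14 had negative fold changes and their median was -0.37. The lowest mean of any tested gene was 6.10 normalised reads, so no tested marker could have a mean of 0. Levels per group were not analysed here, since the table gives 1 mean per gene. The part of these shifts in the results below was not tested. In sorted bulk RNA, fewer cells of a type and less RNA per cell cannot be told apart. Ep400 itself stood at 0.01 ± 0.17 (SE, log2) per the authors' deposited table (adjusted p = 0.97), a count over the whole gene that does not resolve the deleted part.

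Promoters of 5 genes that passed the test are shown because their letters bear on the X-box. RefSeq (GRCm38.p6) gave windows of 250 bases before to 50 after a gene start for 39 of the 44 genes, 42 windows in all, since Nphp4 had 3 starts and Arl6 had 2. Ift80, Ift81 and Ift122 were among the genes without one. Capitals mark the letters searched, on either strand, for the X-box: GT, any 2 bases, CC, any 3 bases, G, any 2 bases and AC, 14 letters in all. The windows are Bbs1 at chr19:4906578-4906877 (minus strand), Tctn1 at chr5:122264411-122264710 (minus), Bbs2 at chr8:94098460-94098759 (minus), Tulp3 at chr6:128355802-128356101 (minus) and Ift43 at chr12:86082311-86082610 (plus).
Bbs1: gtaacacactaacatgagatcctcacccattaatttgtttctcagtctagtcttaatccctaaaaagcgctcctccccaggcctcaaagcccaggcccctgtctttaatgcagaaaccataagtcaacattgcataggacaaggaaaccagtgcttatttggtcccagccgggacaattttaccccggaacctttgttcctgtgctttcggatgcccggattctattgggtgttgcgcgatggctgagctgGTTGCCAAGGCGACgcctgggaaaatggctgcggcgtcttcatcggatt
Tctn1: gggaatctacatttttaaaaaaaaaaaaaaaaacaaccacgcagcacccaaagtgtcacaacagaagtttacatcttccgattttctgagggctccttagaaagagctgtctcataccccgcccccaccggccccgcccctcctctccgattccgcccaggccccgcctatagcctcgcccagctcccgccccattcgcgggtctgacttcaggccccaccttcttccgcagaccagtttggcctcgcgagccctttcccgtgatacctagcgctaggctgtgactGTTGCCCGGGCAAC
Bbs2: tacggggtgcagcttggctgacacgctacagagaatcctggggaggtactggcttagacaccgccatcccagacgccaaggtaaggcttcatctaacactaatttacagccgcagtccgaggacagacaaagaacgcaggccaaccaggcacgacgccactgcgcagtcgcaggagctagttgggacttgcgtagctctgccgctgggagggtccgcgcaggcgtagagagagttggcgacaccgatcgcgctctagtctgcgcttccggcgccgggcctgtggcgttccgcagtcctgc
Tulp3: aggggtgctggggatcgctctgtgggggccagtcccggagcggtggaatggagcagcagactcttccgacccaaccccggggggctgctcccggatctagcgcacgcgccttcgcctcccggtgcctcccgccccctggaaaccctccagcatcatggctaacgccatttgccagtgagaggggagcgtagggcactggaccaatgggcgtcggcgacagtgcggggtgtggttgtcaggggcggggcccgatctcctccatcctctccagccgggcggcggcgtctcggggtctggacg
Ift43: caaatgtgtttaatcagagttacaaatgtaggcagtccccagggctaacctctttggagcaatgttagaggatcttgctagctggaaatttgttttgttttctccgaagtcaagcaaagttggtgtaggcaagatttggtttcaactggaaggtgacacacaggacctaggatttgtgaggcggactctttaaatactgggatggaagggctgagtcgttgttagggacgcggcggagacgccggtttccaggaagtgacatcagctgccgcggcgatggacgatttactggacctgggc
Bbs1 and Tctn1 hold a match that starts 1 and 36 bases after the start site, and the windows of Bbs2, Tulp3 and Ift43 hold none of these letters. In GENCODE M21 (mm10) Bbs2 starts at position 94098928, outside its RefSeq window, so that start was not searched.

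Most of the cilium genes lay slightly higher in Ep400 cko, and few passed the test. At an adjusted p under 0.05, 5 of the 44 genes were higher, among them Tctn1, Bbs2, Bbs1 and Tulp3, 1 (Ift43) was lower and 38 did not pass. The 6 calls are 13.6% of the genes, near the 12.2% called among all tested genes and the 13.1% among tested genes with means in the same range of 424 to 7180 normalised reads. The shares of higher and lower calls were 11.4% and 2.27%, against 7.64% and 4.61% in all tested genes and 7.42% and 5.65% in the same range of means. The share of calls was thus near the background. The background shares of 7.64% higher and 4.61% lower also apply to the counts by group and list below. The fold change was positive in 34 of the 44 genes, or 77.3%, against 49.8% of all tested genes, and the median was 0.15 against -0.00. At an adjusted p under 0.1, 11 of the 44 genes passed (25.0%), 9 higher and 2 lower, against 17.7% of all tested genes.

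**Figure D1:**
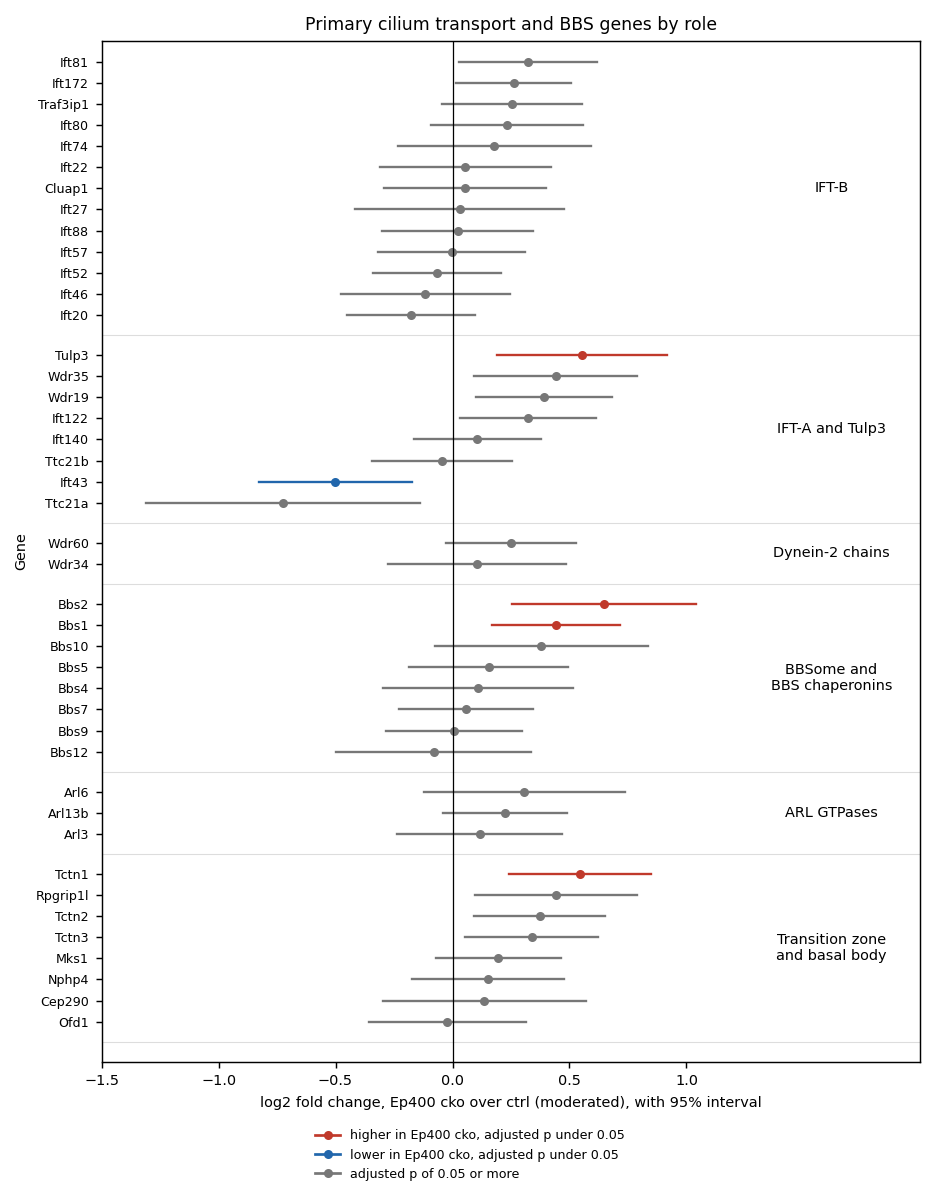
Log2 fold change of 42 of the 44 genes (Ep400 cko over ctrl, points) with its 95% interval (lines), grouped by role and coloured by the call at an adjusted p under 0.05. The higher genes shown are Tulp3, Bbs2, Bbs1 and Tctn1, Ift43 is the 1 lower gene, and no IFT-B gene passed.

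The size of any change was small throughout. All 44 fold changes lay between -0.72 (Ttc21a) and 0.65 (Bbs2) per the authors' deposited table. Normal 95% intervals from the deposited SE held 0 for 29 genes and lay wholly within -1 and 1 for 42 genes and within -0.5 and 0.5 for 21 genes. The exceptions at 1 were Bbs2, whose interval reached 1.04, and Ttc21a, whose interval reached -1.31. Because the fold changes are moderated, these intervals are on a scale drawn towards 0.

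**Figure D2:**
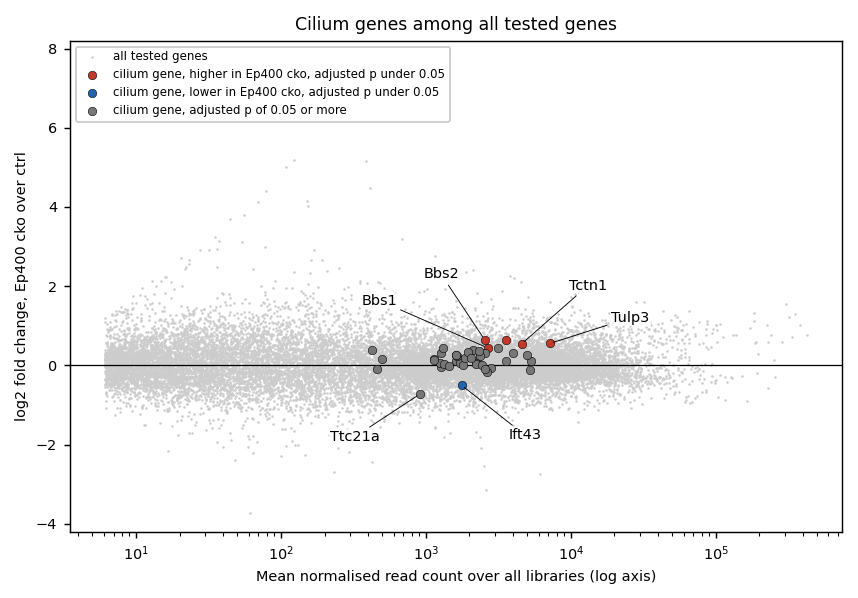
Log2 fold change against the mean normalised read count (log axis) for all 20101 tested genes in grey and the 44 cilium genes in colour. The cilium genes lie at middle abundance, from 424 to 7180 normalised reads, inside the cloud of all genes.

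The IFT-B complex, which carries cargo towards the tip, had no gene that passed among its 13 members here. Its median was 0.05, 9 of 13 fold changes were positive, and all intervals lay between -0.48 and 0.62, which at the upper end is 1.53-fold. The intervals, which are not adjusted for the number of genes, held 0 for 11 of the 13. Those of Ift81 and Ift172 lay just above 0. The highest values per the authors' deposited table were those of Ift81, a tubulin-binding subunit, at 0.32 ± 0.15 (adjusted p = 0.14), and of Ift172, the largest subunit, at 0.26 ± 0.13 (adjusted p = 0.16). Ift74, the partner of Ift81 in tubulin binding, stood at 0.18 ± 0.21 (adjusted p = 0.65) per the authors' deposited table. The subunit genes Ift80 at 0.23 ± 0.17, Traf3ip1 (also called IFT54) at 0.26 ± 0.15 and Cluap1 (IFT38) at 0.05 ± 0.18 per the authors' deposited table did not pass either. Ift88, whose mouse mutants have short cilia and cystic kidneys, had 0.02 ± 0.16 per the authors' deposited table (adjusted p = 0.95). The lowest was Ift20, which links the Golgi to the cilium, at -0.18 ± 0.14 per the authors' deposited table (adjusted p = 0.46).
The remaining IFT-B genes were close to 0. The authors' deposited table gave 0.05 ± 0.19 for Ift22 and 0.03 ± 0.23 for Ift27, both small GTPase-like subunits. Ift57, Ift52 and Ift46 had -0.00 ± 0.16, -0.07 ± 0.14 and -0.12 ± 0.18 per the authors' deposited table. As levels per kilobase of exon, the IFT-B genes ran from 191 normalised reads (Ift80) to 1734 (Ift20), with a median of 698. Ift52 and Ift57 stood at 1000.3 and 848 normalised reads per kilobase.

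The IFT-A genes and Tulp3 held the widest range, with 1 gene higher and 1 lower of 8. Tulp3, which binds IFT-A and membrane phosphoinositides and brings receptors into the cilium, had the highest mean of all 44 genes, 7180 normalised reads, and rose by 0.55 ± 0.18 (1.47-fold) per the authors' deposited table (adjusted p = 0.028). Ift43, a peripheral IFT-A subunit, had a mean of 1763 normalised reads and fell by 0.50 ± 0.17 per the authors' deposited table (adjusted p = 0.028). In mm10 (GENCODE M21), Tulp3 spans positions 128321161 to 128355851 of chromosome 6 (minus strand) and Ift43 positions 86082541 to 86162459 of chromosome 12 (plus strand). With the trend in transcript length and GC content removed, Ift43 did not pass (-0.39, adjusted p = 0.12).
The other IFT-A genes did not pass. The core subunit genes Wdr19 and Ift122 stood at 0.39 ± 0.15 and 0.32 ± 0.15 per the authors' deposited table (adjusted p = 0.060 and 0.14), and Wdr35, a peripheral subunit, at 0.44 ± 0.18 (adjusted p = 0.083). Ift140, a further core subunit with a mean of 5281 normalised reads, had 0.11 ± 0.14 per the authors' deposited table (adjusted p = 0.68). Of the paralogues Ttc21a and Ttc21b, Ttc21b, the IFT139 subunit, stood at -0.05 ± 0.15, and Ttc21a, known from human sperm flagella, at -0.72 ± 0.30 per the authors' deposited table (adjusted p = 0.89 and 0.091). Ttc21a had the largest SE of the 44 genes, and the difference between the paralogues was not tested. Per kilobase of exon the paralogues had levels of 169 normalised reads for Ttc21a and 137 for Ttc21b over all libraries. The exons of all annotated transcripts give 5388 and 9282 bases, against 4182 and 5807 in the longest transcript. The 2 levels therefore do not rank the paralogues.

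The dynein-2 motor returns the trains to the base. Its intermediate chains Wdr60 and Wdr34 stood at 0.25 ± 0.14 and 0.10 ± 0.19 (SE) per the authors' deposited table (adjusted p = 0.26 and 0.79). Of 18 other motor genes, 2 were higher and 2 lower, with a median of -0.10. Dync2h1, the dynein-2 heavy chain, rose by 0.76 ± 0.18 per the authors' deposited table (adjusted p = 0.00093). Kif17, a kinesin-2 gene, rose by 0.77 ± 0.24 at a mean of 187 normalised reads per the authors' deposited table (adjusted p = 0.015). The light chain genes Dynll2 and Dynlrb2 fell by 1.07 ± 0.33 and 0.79 ± 0.28 per the authors' deposited table (adjusted p = 0.015 and 0.043), and Dynll2 also serves cytoplasmic dynein. Other kinesin-2 genes did not pass. Kif3a, Kif3b and Kifap3 stood at 0.12 ± 0.16, 0.08 ± 0.12 and 0.07 ± 0.14 per the authors' deposited table. Kif3c stood at 0.34 ± 0.16 per the authors' deposited table (adjusted p = 0.16).

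Of the 8 BBS genes, 2 were higher and 6 did not pass, with a median of 0.13. The share of higher genes was 25.0% in this small group, against 7.64% among all tested genes. Bbs2, a BBSome subunit with a mean of 2544 normalised reads, rose by 0.65 ± 0.20 (1.57-fold) per the authors' deposited table (adjusted p = 0.017). Bbs1, the subunit that binds Arl6 and recruits the coat to membranes, rose by 0.44 ± 0.14 (1.36-fold) at a mean of 2667 normalised reads per the authors' deposited table (adjusted p = 0.019). Bbs2 spans positions 94067954 to 94098928 of chromosome 8 and Bbs1 positions 4886878 to 4906628 of chromosome 19, both read from the minus strand. Both also passed with length and GC trends removed. They passed with no filter on low genes and with a mean of at least 80, which change only the adjustment. Centring, which shifted all values by less than 0.01, left both calls as well.
The other BBSome subunits had smaller values, and differences between subunits were not tested. Bbs9, Bbs7, Bbs4 and Bbs5 stood at 0.01 ± 0.15, 0.06 ± 0.15, 0.11 ± 0.21 and 0.15 ± 0.17 per the authors' deposited table, with adjusted p of 0.63 to 0.99. The chaperonin-like genes Bbs10 and Bbs12, whose products help assemble the BBSome, had the lowest means of the 44 genes, 424 and 462 normalised reads. Bbs10 stood at 0.38 ± 0.23 and Bbs12 at -0.08 ± 0.21 per the authors' deposited table (adjusted p = 0.30 and 0.86). Per kilobase of exon the BBS genes ran from 139 normalised reads (Bbs10) to 768 (Bbs2).
None of 14 IFT and BBS genes under other symbols passed, although 12 of 14 had positive fold changes and their median was 0.19. Ttc8, the BBS8 subunit, had 0.21 ± 0.17 and Lztfl1, a regulator of BBSome entry, 0.38 ± 0.19 per the authors' deposited table (adjusted p = 0.45 and 0.18). Hspb11, the IFT25 partner of Ift27, was the lowest at -0.61 ± 0.22 per the authors' deposited table and lay just outside the threshold (adjusted p = 0.0505).

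The ARL GTPases recruit the BBSome and release lipidated cargo inside the cilium, and none of the 3 passed. Arl6, which recruits the BBSome, stood at 0.31 ± 0.22, Arl13b, the exchange factor for Arl3, at 0.22 ± 0.14, and Arl3 at 0.12 ± 0.18 per the authors' deposited table (adjusted p = 0.39, 0.29 and 0.74). Of 7 genes for carriers and other partners of lipidated cargo, Cys1, which encodes the ciliary lipoprotein cystin, fell by 1.04 ± 0.25 per the authors' deposited table (adjusted p = 0.00098). The other 6 did not pass.

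The transition zone and basal body group had 2 of 10 genes higher, none lower, and the highest median of the larger groups, 0.27. Among all tested genes 7.64% were higher and 4.61% lower. The group's median exonic length was 6330.5 bases, against 3608 in the IFT-B group and 8807.5 in the IFT-A group. The part of length in the group medians was not tested. Tctn1, a tectonic that mouse mutants tie to hedgehog signalling, rose by 0.54 ± 0.15 (1.46-fold) at a mean of 4591 normalised reads per the authors' deposited table (adjusted p = 0.0078). In the same annotation Tctn1 spans positions 122237848 to 122264460 of chromosome 5 (minus strand).
Other components stood lower or had wider intervals. Tctn2 and Tctn3, which share a membrane complex with Tctn1, had 0.37 ± 0.14 and 0.34 ± 0.14 per the authors' deposited table (adjusted p = 0.066 and 0.11). Rpgrip1l, a scaffold gene, stood at 0.44 ± 0.18 (adjusted p = 0.081), and Mks1, of the Meckel syndrome module, at 0.20 ± 0.14 per the authors' deposited table (adjusted p = 0.38). Nphp4, Cep290 and Ofd1 had 0.15 ± 0.17, 0.14 ± 0.22 and -0.02 ± 0.17 per the authors' deposited table (adjusted p = 0.62, 0.75 and 0.96).
None of 21 other transition zone and inversin compartment genes passed, with a median of 0.14. Among 19 tested genes of the distal appendages and of the onset of cilium formation 2 were higher and none lower. C2cd3 rose by 0.44 ± 0.14 and Ttbk2, the kinase that starts ciliogenesis, by 0.52 ± 0.18 per the authors' deposited table (adjusted p = 0.026 and 0.031).

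Shared exons limit some of these values, and the strand setting of the counting was not given in any source used. For 10 of the 44 genes, exons overlap those of another gene in GENCODE M21. Tctn1 shares 1574 of its 8295 exonic bases with Hvcn1 on the opposite strand, and Hvcn1 stood at -0.52 ± 0.21 per the authors' deposited table (adjusted p = 0.085), opposite in sign to Tctn1. Cep290 shares 881 of 11617 exonic bases with 4930430F08Rik on the opposite strand, whose value was 0.22 ± 0.22 per the authors' deposited table. Bbs1, Bbs2, Tulp3 and Ift43 overlap no exon of another annotated gene.

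The gene start of 11 cilium genes lies within 1000 bases of a coding gene that runs the other way and does not overlap it. Pairs of genes that overlap at their starts were not counted. Of these 11 partners 2 were higher and none lower. Sfxn2, beside Arl3, rose by 0.64 ± 0.19, and Tmtc3, beside Cep290, by 0.60 ± 0.21 per the authors' deposited table (adjusted p = 0.0098 and 0.040), while Arl3 and Cep290 did not pass. Rpgrip1l, at 0.44, starts 262 bases from Fto, which had -0.02 ± 0.13 per the authors' deposited table (adjusted p = 0.96). Ttc21a, at -0.72, starts 40 bases from Gorasp1, at -0.16 ± 0.16 per the authors' deposited table (adjusted p = 0.56).

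Fold change moved with transcript size and with GC content across the whole table, and the cilium genes are long. Their median exonic length was 5238 bases, against 3627 in all tested genes. Over the 44 genes the fold change and exonic length had a Spearman correlation of 0.46, a description over genes that share libraries and depth, and over 20021 genes it was 0.17. For the GC content of the longest transcript the correlation was -0.04 over the 44 genes and -0.19 over all tested genes. In 5 equal classes by exonic length, the median fold change of all tested genes was 0.13 in the longest, from 6715 bases, and -0.09 in the shortest, up to 1698 bases. In the longest class, 12 of 13 cilium genes had positive values with a median of 0.37, and 3 were higher in the test (Bbs1, Tctn1 and Tulp3), where 12.8% of all genes of that class were higher. The shortest class held Ift43 and Ift20, both negative. With length and GC trends removed, 31 of 44 values were positive and the median was 0.17.

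**Figure D3:**
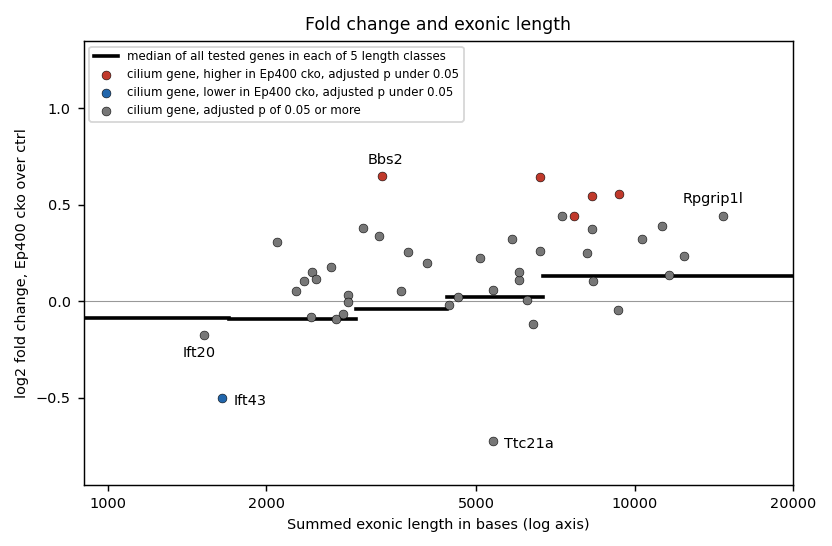
Log2 fold change (Ep400 cko over ctrl) against summed exonic length (log axis) for the 44 cilium genes, with black bars for the median of all tested genes in each of 5 classes by length. The bars lie at 0.13 in the longest class and -0.09 in the shortest, and Ift43 and Ift20 are the shortest cilium genes.

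The X-box letters were found in at least 1 window of 10 of the 39 cilium genes, or 25.6%, against 5.26% of the 27025 genes in the promoter table and 6.42% of the tested genes in it. The shorter motif GTTGCCA, 7 letters and one arm of the X-box, was also found in 10 of the 39 genes (25.6%), against 5.02% of all genes, and 16 of the 39 genes held at least 1 of the motifs, since 4 held both. The matches of Nphp4 lie in 1 of its 3 windows. Short matches inside an X-box were counted in both, as in Bbs1 and Mks1. The windows of cilium genes were richer in G and C than those of all genes, with a median of 61.0% against 52.7%. A match is only a match of letters in this window. The other X-box matches, with 10 bases on each side and the motif in capitals, are printed to show how the letters vary.
Bbs4: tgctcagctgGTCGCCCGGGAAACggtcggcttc
Bbs7: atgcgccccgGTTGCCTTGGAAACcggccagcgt
Ift22 upstream: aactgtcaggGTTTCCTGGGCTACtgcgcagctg
Ift22 downstream: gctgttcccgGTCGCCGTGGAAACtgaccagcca
Ift57 upstream: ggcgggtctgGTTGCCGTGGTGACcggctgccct
Ift57 downstream: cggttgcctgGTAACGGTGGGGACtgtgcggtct
Mks1: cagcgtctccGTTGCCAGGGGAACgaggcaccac
Nphp4: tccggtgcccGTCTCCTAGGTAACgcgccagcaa
Tctn2: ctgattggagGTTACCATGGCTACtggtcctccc
Wdr19: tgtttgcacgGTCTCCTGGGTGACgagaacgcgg
Of the 12 matches, 7 began within 60 bases of the start site. The 10 genes with a match had a median fold change of 0.17, with 2 higher and none lower, and the 29 genes without one a median of 0.12, with 2 higher and 1 lower. The ranges overlapped widely, from -0.00 to 0.54 with a match and from -0.72 to 0.65 without. Bbs2 and Ift46, counted as without a match, have GENCODE M21 starts outside their RefSeq windows, and those starts were not searched.

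**Figure D4:**
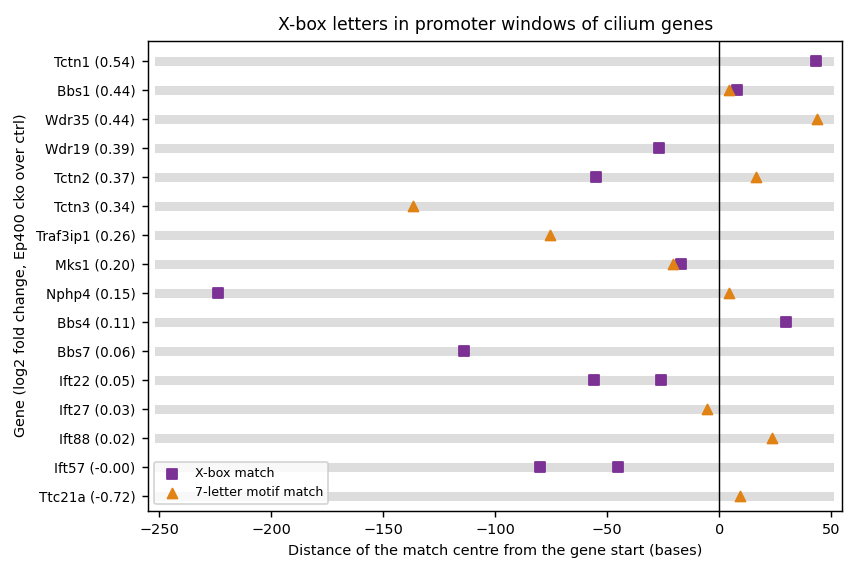
Distance in bases from the gene start to the centre of each X-box match (squares) and GTTGCCA match (7-letter motif, triangles) in the 16 cilium gene promoters that hold one, ordered by log2 fold change (Ep400 cko over ctrl, in brackets). Grey bars are the windows searched; matches lie on both sides of the start, in genes from Tctn1 at 0.54 to Ttc21a at -0.72.

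The listed regulators of cilium genes, RFX factors and others such as Foxj1 and Foxn4, did not share a direction. Rfx3, Rfx7 and Rfx4 rose by 0.66 ± 0.18, 0.50 ± 0.14 and 0.79 ± 0.27 per the authors' deposited table (adjusted p = 0.0061, 0.0069 and 0.031), and Rfx4 is also known from neural progenitors and astroglia. Rfx1 and Rfx2 stood at 0.08 ± 0.18 and 0.01 ± 0.16 per the authors' deposited table (adjusted p = 0.84 and 0.98). Foxj1 fell by 0.99 ± 0.27 and Foxn4 by 1.13 ± 0.33 per the authors' deposited table (adjusted p = 0.0045 and 0.010). Of the 11 regulators listed, among them Foxj1, which is also in the multiciliated list, 3 were higher, 2 lower and 6 did not pass. The 3 higher were RFX genes and the 2 lower were not.

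Genes of the motile axoneme had mostly negative values. Of 29 tested markers of motile cilia and multiciliated cells, 11 were lower, none higher and 18 did not pass, with a median of -0.67 and 3 positive values, against 34 positive values in the 44 transport genes. The radial spoke gene Rsph1 fell by 1.08 ± 0.30 and the adenylate kinase gene Ak7 by 0.99 ± 0.29 per the authors' deposited table (adjusted p = 0.0061 and 0.011). Over both groups together, the lowest mean of the 29 was 233 normalised reads for 1700012B09Rik and the highest 5381 for Foxj1. Of these genes, 25 had a promoter entry, and 9 of the 25 held the X-box letters (36.0%). Motile cilia are also built by IFT, and the part of multiciliated cells in the values of the transport genes was not tested.

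Of 16 genes for signals received at the cilium, 6 were higher, none lower and 10 did not pass, and the median of the 16 was 0.32. The share of higher genes was 37.5%, against 7.64% of all tested genes. Only genes that passed are named here. Ptch1, the hedgehog receptor, and the hedgehog transcription factors Gli3 and Gli1 rose by 0.98 ± 0.23, 1.00 ± 0.27 and 0.81 ± 0.23, and Pkd1, a polycystin, by 0.44 ± 0.13 per the authors' deposited table (adjusted p = 0.00097, 0.0041, 0.0077 and 0.0079). Beside these values, the astrocyte markers had a median of 1.01. Over all 104 other cilium genes in the 7 pathway lists, 13 were higher, 5 lower and 86 did not pass, or 12.5% and 4.81%, with a median of 0.13.

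**Figure D5:**
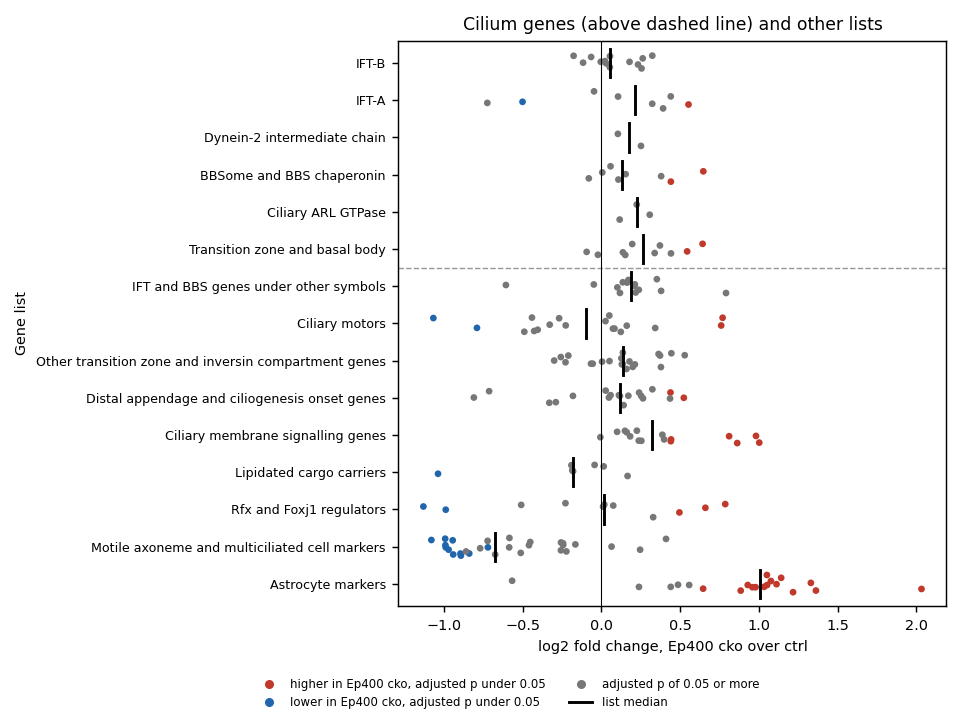
Log2 fold change (Ep400 cko over ctrl) of each tested gene, by list, with the list median as a black bar, for the 6 role groups of the cilium genes above the dashed line and 9 other lists below it. Transport genes lie near 0, motile axoneme markers mostly left of it with a median of -0.67, and astrocyte markers right of it with a median of 1.01.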

How the data were processed

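RNA-seq of 3 Ep400 cko and 3 ctrl samples was used as 1 deposited table with 0 columns of values per sample. Per the submitters' processing notes, STAR 2.5.1, HTSeq and DESeq2 were used with mm10, and Ensembl release 85 identifiers are used per the file headers. The authors' deposited signal is a mean normalised read count over all libraries. Its header says raw counts, yet 0 of the means above 0 are a whole number of reads divided by 6 libraries (tolerance 1e-06), so the reads had been scaled. The authors' deposited log2 fold change and SE are moderated, judged from their values, the deposited score is their Wald ratio, and the deposited p-value and adjusted p-value follow from it by the normal distribution and Benjamini-Hochberg (largest difference 2.83e-15). The direction, cko over ctrl, rests on the file's name. The means sum to 80407400 normalised reads, and the depth of each library was not analysed here. The p-values weigh each fold change against its SE, which rests on 3 samples per group. How many animals each sample holds is not stated.

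The test is the authors' own comparison over all genes as deposited, called at an adjusted p under 0.05. Exonic lengths, coordinates and overlaps came from GENCODE M21 (GRCm38, the mm10 assembly). The longest transcript's length and GC content were regressed out of the Wald score with cubic splines (5 quantile points) over 20015 genes, all 44 cilium genes included, after a check on simulated data. Alternatives were no filter on low genes, a mean of at least 80, that trend, centring and an adjusted p under 0.1. Every cilium gene may be named by rule, and of other lists up to 4 called genes with the smallest adjusted p and the most abundant gene of each cell type list. The other list genes named (Kif3a, Kif3b, Kif3c, Kifap3, Ttc8, Lztfl1, Hspb11, Rfx1, Rfx2, Rfx4, Pdgfra and Olig2; Mkks for its symbol only) and the partner and overlapping genes were chosen after their values were seen. A few gene-level results are not reported here; their genes remain in the counts and medians. The genes and lists were chosen with earlier results of these data known. Python 3.11.15, pandas 2.3.3 and SciPy 1.17.1 were used.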

Additional observations from a re-analysis of the deposited data

How the results depend on the processing

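Of the 44 cilium genes, the 6 calls were the same 6 genes with no filter on low genes, with a mean of at least 80 and after centring on the median of all tested genes. With length and GC trends removed 5 passed, all higher; the number of lower genes was 0, as Ift43 no longer passed (adjusted p = 0.12). At an adjusted p under 0.1, 11 genes passed, 9 higher and 2 lower. The median fold change was 0.15 to 0.17 over the alternatives. The filters and the looser threshold keep the deposited fold changes, so they could not move this median. Centring shifts every value by the same small amount, so only the trend removal changed values gene by gene. The authors' comparison was used as deposited, so no result could be recomputed without 1 library or with another count model, and tests on reads per library (limma, another pseudocount, leaving out a library) were not run. No paired analysis was possible because the table holds 0 columns of values per sample, although the labels number the replicates in both groups. SEs of the 44 genes ran from 0.13 to 0.30, with a median of 0.17.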
